A study of Mus musculus with 22 samples.

Results

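The genes of fatty acid uptake, storage and oxidation form a set of 36, chosen by name for their place in the route that a fatty acid takes through a heart muscle cell. The choice was made with earlier results of these data known. They were followed in the hearts of neonatal mice of the CD1 stock. Their rows were found by matching the Ensembl identifiers of both deposited tables to the symbols of the GENCODE annotation of mm10. All 36 were present among 49670 genes in the table of the right ventricle (RV) and 49671 in that of the left ventricle (LV). By step, 6 genes act in uptake and activation, 3 in storage, 5 in the carnitine shuttle, 16 in beta-oxidation, 4 are thioesterases or act on malonyl-CoA, and 2 are uncoupling proteins.

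The libraries form 4 groups from 11 mice. In 6 mice (nPAB) the pulmonary artery was banded against a needle on postnatal day 1, an operation that narrows the outflow of the RV and so raises its pressure load. The other 5 mice (Sham) had sham surgery on the same day, and both were harvested 7 days later. Each mouse gave 1 RV and 1 LV bulk RNA library, so there are 6 RV nPAB, 5 RV Sham, 6 LV nPAB and 5 LV Sham libraries. The RV is the ventricle behind the band, and the LV of the same hearts is not behind it. All mice are labelled CD1 with no allele or drug given, the labels name a single batch, and they name no litter, so littermates cannot be told apart.

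The newborn heart changes its fuel after birth. Before birth it depends largely on glucose and lactate, and in the days after birth, with a milk diet and more oxygen, fatty acid oxidation becomes its main source of ATP. Long-chain fatty acids are freed from lipoproteins, taken up and bound in the cytosol, activated to acyl-CoA, moved into mitochondria as acylcarnitines, and shortened there by repeated cycles of beta-oxidation, whose electrons pass to the respiratory chain. Many of these genes are known targets of PPAR nuclear receptors, which are activated by fatty acids.

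Values are gene counts divided by a size factor of each library, called normalized counts below. A fold change is the difference, nPAB minus Sham, of mean log2(normalized count + 1), with its standard error. A gene was called when limma's p, adjusted by the Benjamini-Hochberg method over all genes tested in that ventricle, was under 0.05. "Rose" and "fell" are used of called genes only. Depth ran from 7.11 to 11.3 M reads a library. The heart muscle markers Tnnt2, Actn2, Myh6, Myl2, Ryr2, Pln and Tnni3 were measured in every library, with sums of 332956 to 454579 in RV nPAB, 381053 to 465961 in RV Sham, 373500 to 576316 in LV nPAB and 442648 to 483600 in LV Sham libraries. Markers of fat cells, which also handle fatty acids, were at or near 0: the 5 genes Adipoq, Plin1, Cidec, Lep and Retn summed to at most 6.48 normalized counts in any library, and Cidec, Lep and Retn were at 0 in all.

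For nPAB mice 6 and 7 the ventricles go against their shared number. By Xist, transcribed from the inactive X chromosome of females, and Ddx3y, a gene of the Y chromosome, the RV library of mouse 6 was female and its LV library male, while the RV library of mouse 7 was male and its LV library female. The other 9 of 11 pairs had the same sex in both ventricles. All 4 libraries are labelled nPAB, so the pairing of the ventricles is in doubt, and main counts are also given without both mice.

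Across the RV, 19 of the 36 members fell with nPAB and 1 rose, where 10.8% of all 13660 genes tested fell and 11.1% rose. Their median log2 fold change was -0.28, and 29 of 36 were negative. In 12 of 36 members every nPAB library lay below every Sham library, against 6.06% of all genes. In the LV, 12 of 36 members fell and none rose, where 4.55% of all 13528 genes fell and 4.76% rose. The LV median was -0.25 with 31 of 36 negative, and 7 members had all nPAB libraries below all Sham libraries, against 3.16% of all genes. All 36 members passed the filter on low values (a mean of at least 10) in both ventricles. They were chosen with earlier results of these data known, so these counts and shares are a description and not a test. In bulk tissue, fewer cells of a type and less RNA per cell cannot be told apart.

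By step, both uncoupling proteins and 3 of the 4 thioesterase and malonyl-CoA genes fell in the RV and in the LV. Of all genes, 10.8% fell in the RV and 4.55% in the LV. Of the 16 beta-oxidation genes 8 fell in the RV and 4 in the LV. Of the 6 uptake genes 3 fell and 1 rose in the RV, and 1 fell in the LV. The LV gene was Angptl4, which also fell in the RV and encodes an inhibitor of lipoprotein lipase, not an uptake protein. The 3 storage genes gave 2 falls in the RV and 1 in the LV, and the 5 carnitine shuttle genes gave 1 fall in each ventricle. The 10 members that fell in both ventricles were Angptl4, Plin2, Hadha, Ech1, Decr1, Acot1, Acot2, Mlycd, Ucp2 and Ucp3. Both ventricles come from the same mice, and the share of all genes that fell in both is not given here. These 10 are therefore a list and not a result about the set. Called in the RV alone were Slc27a1, Acsl1, Plin5, Cpt1a, Acadm, Acaa2, Eci1, Eci2 and Etfa, which fell, and Fabp3, which rose. Called in the LV alone were Cpt2 and Hadhb. The other 14 were called in neither. A call in 1 ventricle alone does not show that the ventricles differed, which was tested separately.

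**Figure D1:**
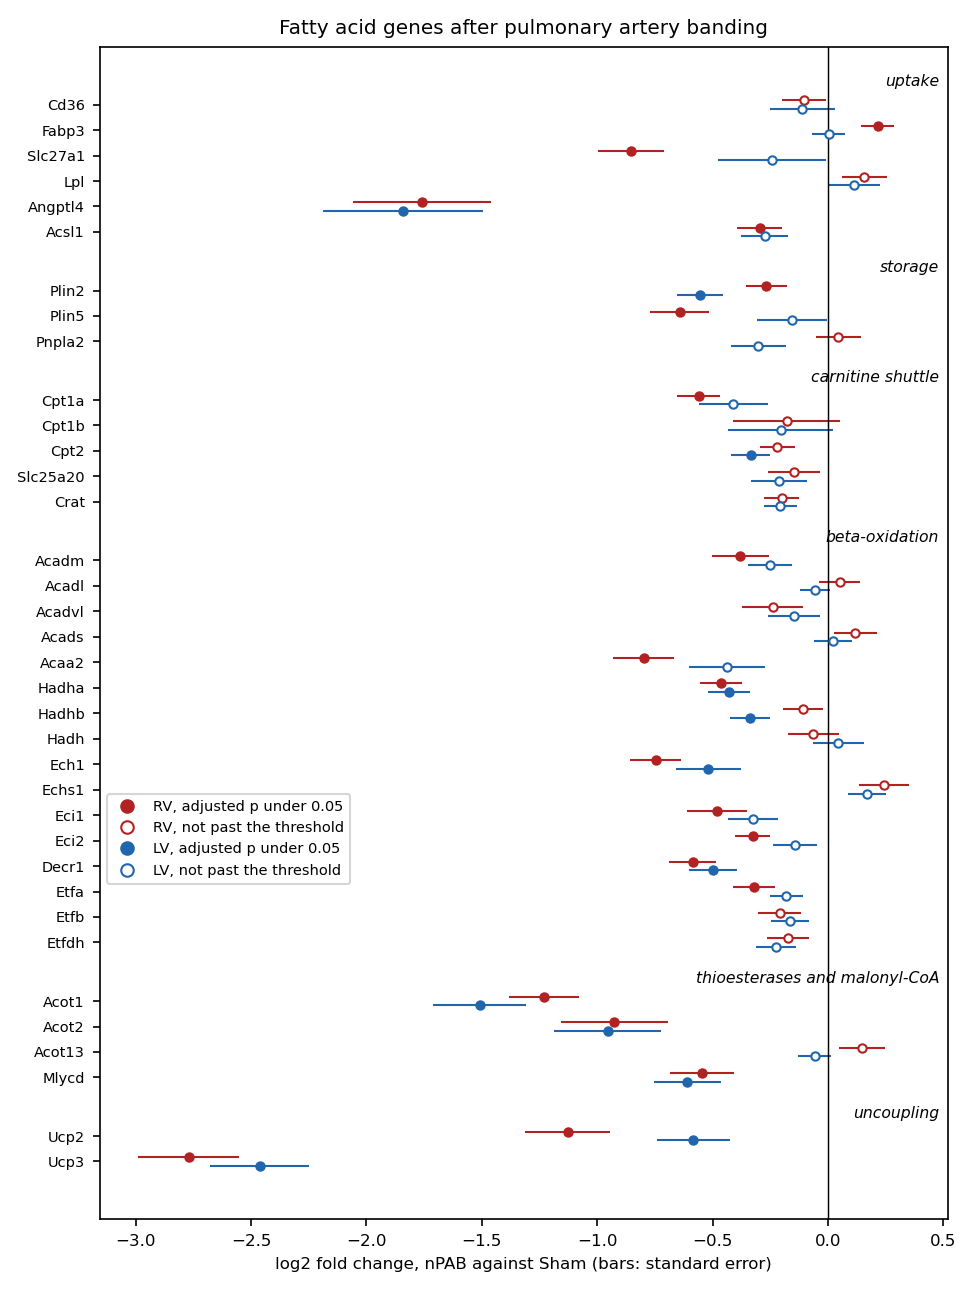
Log2 fold change, nPAB minus Sham, of each of the 36 members in the RV and the LV, ordered by step, with bars for the standard error and filled points for called genes. Most points lie below 0 in both ventricles, and Ucp3 is lowest at -2.77 in the RV and -2.46 in the LV.

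The RV count held without the libraries of mixed sex, and the LV count was smaller. Without nPAB mice 6 and 7, the RV gave 17 falls and 3 rises; Acsl1 and Plin2 were no longer called and Lpl and Echs1, then higher in nPAB, were added. The LV then gave 5 falls, of Plin2, Hadha, Decr1, Acot1 and Ucp3, which is under the 12 of all mice. Over all genes, lower calls went from 616 to 318 in the LV and from 1480 to 1359 in the RV. The LV count also rests on mouse 11: without its library 21 members were called, and 1290 of all genes, against 1260 with all mice. Leaving out 1 mouse at a time gave 16 to 21 member calls in the RV and 8 to 21 in the LV. Over all genes it gave 2399 to 3015 calls in the RV and 841 to 1290 in the LV. Scaling by total reads in place of size factors gave 23 falls and no rise in the RV and 19 falls in the LV. Over all genes it gave 1089 higher and 2151 lower calls in the RV, where size factors gave 1519 and 1480, and 468 higher and 903 lower calls in the LV, where size factors gave 644 and 616. It moved the median of all genes by -0.092 in the RV and -0.057 in the LV.

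The uptake step begins at the capillary. Angptl4, a secreted inhibitor of lipoprotein lipase and a known PPAR target, had the deepest fall of its step. Its RV nPAB libraries held 188 to 800.3 normalized counts with a median of 391, and its RV Sham libraries held 1557, 1325, 1353, 1195 and 1301. All 6 nPAB libraries lay below all 5 Sham libraries. The log2 fold change was -1.76 ± 0.30 (adjusted p 0.00206). In the LV the nPAB libraries held 153 to 659.5 with a median of 441, against 1829, 1284, 1659.5, 980.2 and 1410.1 in the LV Sham libraries. There too the groups did not overlap, with a fold change of -1.84 ± 0.35 (adjusted p 0.0106). Without mice 6 and 7 the LV call was lost (adjusted p 0.0623), with a fold change of -1.82.

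Slc27a1 encodes a fatty acid transport protein with acyl-CoA synthetase activity. It had 138 to 235 normalized counts in RV nPAB libraries, with a median of 202, against 427, 356, 310.4, 366 and 282 in RV Sham libraries. The groups did not overlap, and the gene fell (-0.85 ± 0.14, adjusted p 3.66e-04). In LV nPAB libraries it ran from 176 to 437, against 241 to 412 in LV Sham libraries, which overlap, and it was not called (-0.24 ± 0.23, adjusted p 0.572). Acsl1, the main long-chain acyl-CoA synthetase of the heart, fell in the RV (-0.30 ± 0.10, adjusted p 0.0363) and was not called in the LV (-0.27, adjusted p 0.102).

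Fabp3, the fatty acid binding protein of the muscle cytosol, was the only member that rose. It had 44648 to 54236 normalized counts in RV nPAB libraries (median 50352) and 42502, 43116, 39977, 48284 and 41018 in RV Sham libraries, which overlap. The rise was small at 0.22 ± 0.073 (adjusted p 0.0403) and was called in 11 of 23 alternative settings; under total-read scaling it was 0.12 with an adjusted p of 0.149, and edgeR gave 0.0588. A pseudogene, Fabp3-ps1, shares 29.2% of its 50-base words, so its count may hold reads of that copy. In the LV its fold change was 0.0039 ± 0.071. Cd36, the membrane receptor that takes up long-chain fatty acids, was at 16787 ± 2635 in RV nPAB and 17879.8 ± 1294 in RV Sham libraries (SD, n = 6 and n = 5). It was not called in either ventricle (-0.10 in the RV, -0.11 in the LV). Lpl, which encodes lipoprotein lipase itself, was also not called (0.16 and 0.11).

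**Figure D2:**
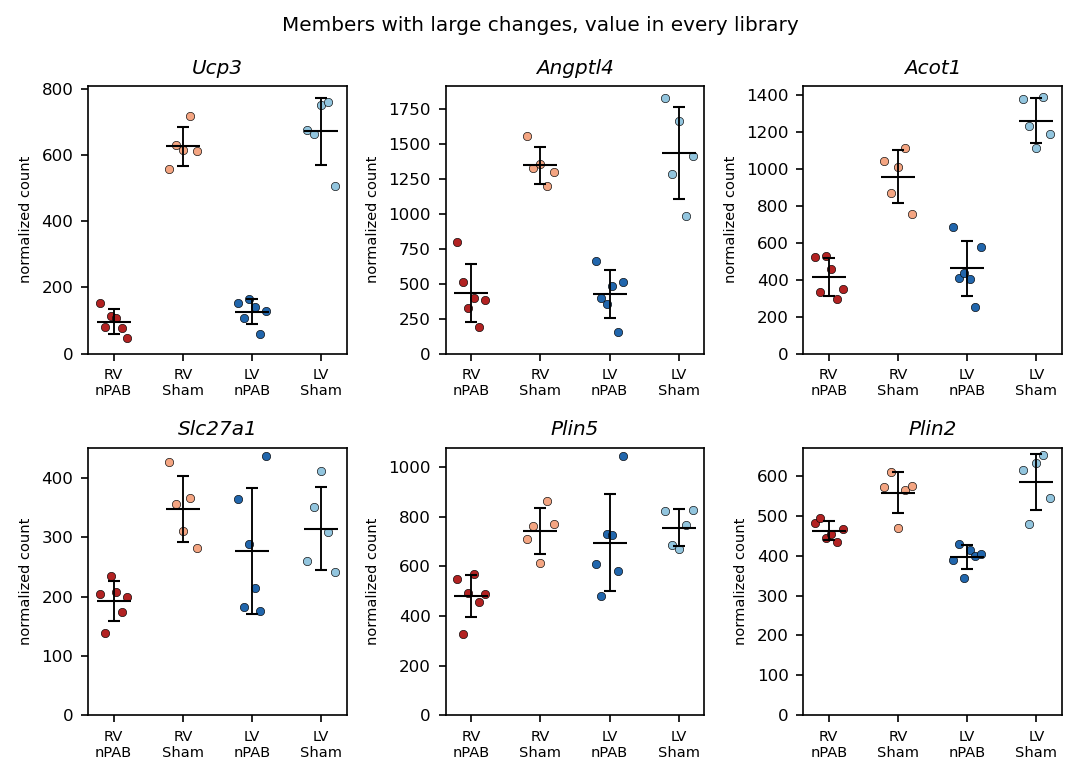
Normalized counts of Ucp3, Angptl4, Acot1, Slc27a1, Plin5 and Plin2 in every library, by group, with the mean as a line and bars for the SD. Each RV nPAB library of Ucp3, Angptl4, Acot1, Slc27a1 and Plin5 lies below each RV Sham library, while in the LV this holds for Ucp3, Angptl4, Acot1 and Plin2.

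Storage is governed by proteins on the surface of the lipid droplet. Plin5, a perilipin of tissues with high fatty acid oxidation that places droplets beside mitochondria, had 326 to 569 normalized counts in RV nPAB libraries (median 492), against 709, 764, 614, 865 and 770.0 in RV Sham libraries. The groups did not overlap. It fell in the RV (-0.64 ± 0.13, adjusted p 0.00142). In LV nPAB libraries it ran from 482 to 1045, against 671 to 829.9 in LV Sham libraries, with no call (-0.16 ± 0.15, adjusted p 0.569).

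Plin2, a perilipin found on droplets of most cells and a known PPAR target, gave its larger fold change in the LV. It had 343 to 429 normalized counts in LV nPAB libraries (median 402), against 615, 481, 632, 653 and 545 in LV Sham libraries. No nPAB library reached the lowest Sham library, and the gene fell (-0.55 ± 0.10, adjusted p 0.00175). In the RV it fell too (-0.27 ± 0.09, adjusted p 0.0398), with 434 to 496 in nPAB against 471 to 609 in Sham libraries, which overlap, and this call held in 10 of 23 alternative settings. Pnpla2, adipose triglyceride lipase, the first enzyme of droplet lipolysis, was not called in the RV (0.044) or the LV (-0.30, adjusted p 0.124).

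In the carnitine shuttle, Cpt1a, the liver-type form of the outer-membrane carnitine palmitoyltransferase that is also prominent in the fetal and newborn heart, was the called gene of the RV. It had 459 to 669 normalized counts in RV nPAB libraries (median 596), against 827, 822, 864, 901 and 883 in RV Sham libraries. The groups were apart and it fell (-0.56 ± 0.094, adjusted p 3.63e-04). In the LV all nPAB libraries, 336 to 684, lay below all Sham libraries, 687 to 821, but the gene was not called (-0.41 ± 0.15, adjusted p 0.0958).

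Cpt2, the inner-membrane partner that reforms acyl-CoA in the matrix, was the called gene of the LV. It had 1429 to 2039 normalized counts in LV nPAB libraries (median 1789.8) and 2188, 2185, 2149.8, 2452 and 2182 in LV Sham libraries, with no overlap (-0.33 ± 0.085, adjusted p 0.0179). In the RV it missed the threshold by little (-0.22 ± 0.078, adjusted p 0.0501). Slc25a20, the carrier that exchanges acylcarnitine for carnitine, was at -0.15 in the RV and -0.21 in the LV, and Crat, the carnitine acetyltransferase, was at -0.20 and -0.21; neither was called. Cpt1b, the muscle form of the outer-membrane enzyme, was counted at only 29.5 to 72.2 in RV nPAB and 47.8 to 64.6 in RV Sham libraries. Since 81.4% of its exon length is shared with Gm44502 on the same strand, its count is uncertain.

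Beta-oxidation repeats a cycle of dehydrogenation, hydration, a second dehydrogenation and thiolysis. Acaa2, a mitochondrial thiolase that ends the cycle for medium chains, fell most among these genes in the RV. It had 3027 to 6059 normalized counts in RV nPAB libraries (median 4549.9), against 7791, 8196, 6998, 8503 and 7836 in RV Sham libraries. The groups did not overlap, with a mean at 58.6% of Sham (-0.80 ± 0.13, adjusted p 5.57e-04). In the LV the nPAB libraries were split: mice 5 and 11 had 7749 and 7925, within the Sham range of 7356 to 7862 or above it, and the other 4 had 3823 to 5600.2. It was not called there (-0.44 ± 0.16, adjusted p 0.121).

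Ech1 and Decr1 are auxiliary enzymes, which with Eci1 and Eci2 shift or reduce the double bonds of unsaturated fatty acids so that the cycle can go on. Ech1 had 4289 to 7598 normalized counts in RV nPAB libraries (median 6183), against 10840.1, 10235, 9176, 10311 and 9311 in RV Sham libraries, and 5487 to 9987 in LV nPAB libraries (median 6426), against 10299, 10202, 10637, 10332 and 9392 in LV Sham libraries. The RV groups were apart and the LV groups overlapped, since mouse 11 had 9987 in its LV. It fell in both (RV -0.75 ± 0.11, adjusted p 1.18e-04; LV -0.52 ± 0.14, adjusted p 0.0354), but the LV call held in only 11 of 23 alternative settings.

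All 4 auxiliary enzymes fell in the RV. Decr1, a dienoyl-CoA reductase, was at 67.1% of the Sham mean (-0.59 ± 0.10, adjusted p 5.31e-04), the isomerase Eci1 at 72.7% (-0.48 ± 0.13, adjusted p 0.0144) and the isomerase Eci2 at 79.8% (-0.33 ± 0.076, adjusted p 0.00456). Decr1 also fell in the LV (-0.50 ± 0.11, adjusted p 0.00666), while Eci1 (-0.32, adjusted p 0.0694) and Eci2 (-0.14, adjusted p 0.369) were not called there.

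The 9 enzymes of the cycle proper, set apart from the auxiliary enzymes after their values were seen, had a median at 93.4% of the Sham mean in the RV, beside 69.9% for the 4 auxiliary enzymes. In the LV these medians were 91.1% and 76.5%. Of the 9, 3 fell in the RV (Acaa2, Acadm and Hadha) and 2 in the LV (Hadha and Hadhb). Acadm, the medium-chain acyl-CoA dehydrogenase whose loss is a common inborn error of fatty acid oxidation in humans, fell in the RV (-0.38 ± 0.12, adjusted p 0.0392), not in the LV (-0.25, adjusted p 0.108), and this call held in 14 of 23 settings. The dehydrogenases for other chain lengths were not called: Acadl was at 0.051 in the RV and -0.055 in the LV, Acads at 0.12 and 0.021, and Acadvl at -0.24 and -0.15. Nor were Hadh, the short-chain hydroxyacyl-CoA dehydrogenase (-0.064 and 0.046), and Echs1, the short-chain enoyl-CoA hydratase (0.24 and 0.17). Acadvl exons overlap those of Dvl2 on the other strand over 42.9% of their length, so part of its count is uncertain.

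**Figure D3:**
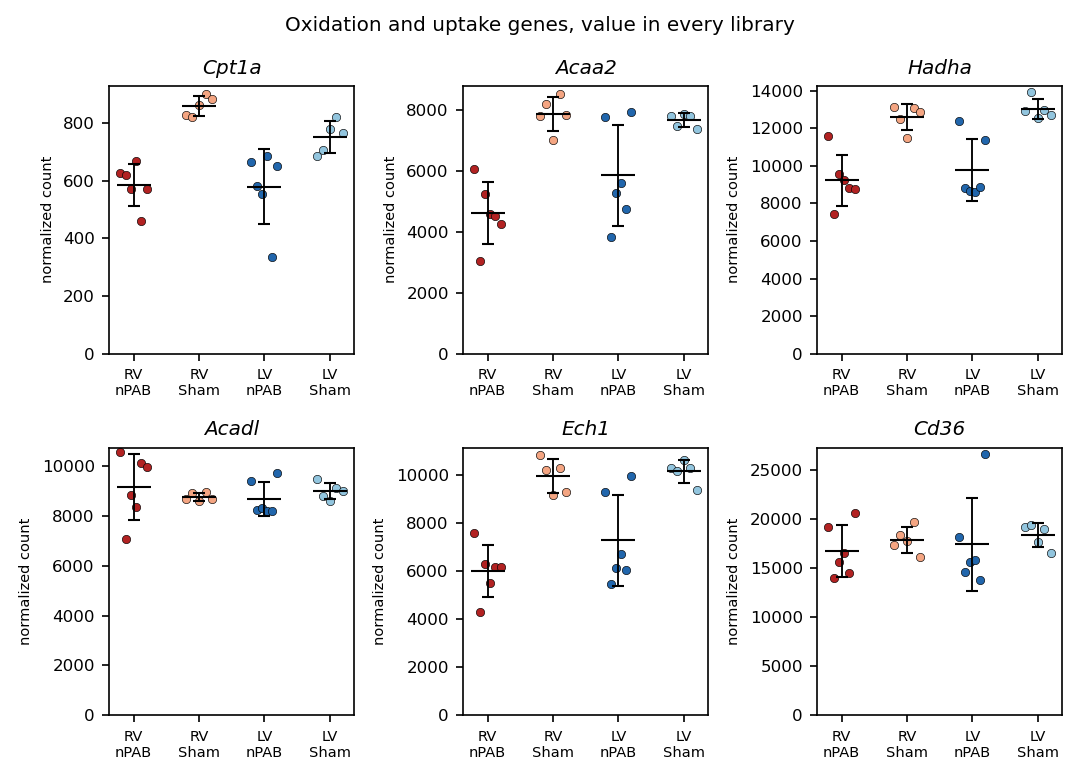
Normalized counts of Cpt1a, Acaa2, Hadha, Acadl, Ech1 and Cd36 in every library, by group, with the mean as a line and bars for the SD. Acaa2, Ech1 and Cpt1a are lower in every RV nPAB library than in any RV Sham library, while Acadl and Cd36 overlap in both ventricles.

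Hadha and Hadhb encode the alpha and beta subunits of the mitochondrial trifunctional protein, which carries out the last steps of the cycle for long chains. They lie head to head on chromosome 5 of mm10, at chr5:30118304-30155162 on the minus strand and chr5:30155248-30184593 on the plus strand, with 85 bases between their ends in GENCODE. In RefSeq, on which the promoter windows rest, 272 bases lie between their starts. Hadha had 7416 to 11588 normalized counts in RV nPAB libraries (median 9015), against 13121, 12516, 11468, 13108 and 12894 in RV Sham libraries. It fell in the RV (-0.46 ± 0.09, adjusted p 0.00127), where only mouse 5 reached the Sham range, and in the LV (-0.43 ± 0.091, adjusted p 0.00665), where no nPAB library did. Hadhb fell in the LV (-0.34 ± 0.087, adjusted p 0.0195) and was not called in the RV (-0.11 ± 0.086, adjusted p 0.406). Hadhb shares 19.7% of its 50-base words with other loci, so its count is uncertain. Their promoter windows overlap, and the stretch is shown because both subunits share it. It runs 5′ to 3′ on the plus strand at chr5:30155003-30155302 of GRCm38.p6 (RefSeq), 250 bases before the Hadhb start to 50 after, with the 228 bases that also belong to the same window of Hadha in capitals.
Hadhb: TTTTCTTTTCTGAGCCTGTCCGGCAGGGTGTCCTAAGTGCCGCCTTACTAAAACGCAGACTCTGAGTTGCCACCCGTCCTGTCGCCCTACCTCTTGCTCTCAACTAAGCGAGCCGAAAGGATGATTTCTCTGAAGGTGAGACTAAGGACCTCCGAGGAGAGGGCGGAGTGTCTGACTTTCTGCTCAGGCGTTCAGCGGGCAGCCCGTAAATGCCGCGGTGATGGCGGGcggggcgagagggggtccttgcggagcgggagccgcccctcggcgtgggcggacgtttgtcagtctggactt

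The electron transfer flavoprotein, built from Etfa and Etfb, and its oxidoreductase Etfdh pass the electrons of the dehydrogenases on to ubiquinone. Etfa fell in the RV (-0.32 ± 0.091, adjusted p 0.0161), with no overlap between 3572 to 5304 in nPAB and 5453 to 6078 in Sham libraries. Etfb was at -0.21 and Etfdh at -0.17 in the RV, and none of the 3 was called in the LV. Etfb shares 58.3% of its exon length with Gm45233 and Mir7051, so its count is uncertain.

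Thioesterases split acyl-CoA back to free fatty acid and CoA. Acot1, the cytosolic long-chain form, had 295 to 525 normalized counts in RV nPAB libraries (median 403), against 1039, 866, 1009.7, 1111 and 757 in RV Sham libraries. In LV nPAB libraries it had 254 to 685 (median 423), against 1377, 1228, 1112, 1390.2 and 1189 in LV Sham libraries. The groups did not overlap in either ventricle, and Acot1 fell in the RV (-1.23 ± 0.15, adjusted p 3.83e-05) and in the LV (-1.51 ± 0.20, adjusted p 7.21e-04). Acot2, the mitochondrial form, lies 15616 bases from it on chromosome 12 and fell too, with overlapping groups (RV -0.93 ± 0.23, adjusted p 0.0161; LV -0.95 ± 0.23, adjusted p 0.0287). Of its 50-base words 27.7% are shared, chiefly with Acot1, and 19.2% of those of Acot1, so reads may be split between these genes. Their Sham values varied: mouse 13 had 3730.2 for Acot2 in the RV against 8623 in mouse 12.

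Acot13, a thioesterase of the mitochondrial surface, was at 0.15 in the RV and -0.058 in the LV and was not called. Mlycd, malonyl-CoA decarboxylase, removes the inhibitor of the outer-membrane carnitine palmitoyltransferase. It fell in the RV (-0.54 ± 0.14, adjusted p 0.0094), where 456 to 899.6 in nPAB stood against 920.2 to 1153 in Sham libraries, and in the LV (-0.61 ± 0.15, adjusted p 0.0161).

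Ucp3, a mitochondrial carrier of striated muscle that rises with fatty acid supply, had the largest fall of all 36 members. Its RV nPAB libraries held 48.2 to 154 normalized counts (median 93.1), against 557, 630.3, 614, 718 and 610.4 in RV Sham libraries. In the LV the nPAB libraries held 59.6 to 165 (median 134), against 674, 662, 749, 759.7 and 507 in LV Sham libraries. In both ventricles the highest nPAB library lay far below the lowest Sham library. The mean was at 15.4% of Sham in the RV (-2.77 ± 0.22, adjusted p 9.09e-07) and at 18.7% in the LV (-2.46 ± 0.21, adjusted p 1.21e-05), and all 23 alternative settings in each ventricle called it. Its promoter is shown because it belongs to the gene with the largest fold change. It runs 5′ to 3′ on the plus strand at chr7:100472741-100473040 of GRCm38.p6 (RefSeq), 250 bases before the start to 50 after, with both copies of the half-site AGGTCA, a core read by nuclear receptors, in capitals.
Ucp3: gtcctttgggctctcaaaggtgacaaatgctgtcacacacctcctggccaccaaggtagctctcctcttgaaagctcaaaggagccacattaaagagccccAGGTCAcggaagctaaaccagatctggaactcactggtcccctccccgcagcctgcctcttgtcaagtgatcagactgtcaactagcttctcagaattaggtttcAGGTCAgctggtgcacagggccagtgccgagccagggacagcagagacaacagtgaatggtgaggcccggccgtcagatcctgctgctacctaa

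Promoter windows of 300 bases were at hand for 29 of the 36 members, not for Lpl, Angptl4, Cpt1b, Crat, Acaa2, Decr1 and Acot13. On either strand the half-site AGGTCA, a motif looked at only after these sequences had been seen, lay in 8 of 29 (27.6%: Acadm, Acadvl, Cd36, Cpt1a, Echs1, Plin2, Plin5 and Ucp3), against 18.1% of all 27025 genes with a window. The longer motifs were in none of the 29. These were a direct repeat of AGGTCA with any 1 base between (in 0.0396% of all 32851 windows), the same repeat with any base at position 4 of each copy (0.381%), TCAAGGTCA, the element of estrogen-related receptors (0.423%), and the glucocorticoid response element (0.00913%). A match is a description and not a binding site.

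Ucp2, a related carrier found in many cell types, lies 6904 bases from Ucp3 on chromosome 7. It had 758 to 1751 normalized counts in RV nPAB libraries (median 1202), against 2987, 2331, 2681, 2556 and 2413 in RV Sham libraries, with no overlap. It fell in the RV (-1.13 ± 0.18, adjusted p 9.15e-04) and in the LV (-0.58 ± 0.16, adjusted p 0.033), where 1025 to 1969.8 in nPAB overlapped 1849 to 2598 in Sham libraries and where the call held in 12 of 23 settings.

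Whether the ventricles differ in their change was tested on the difference log2 RV minus log2 LV of each mouse. No member was called by limma, where 0.00748% of 13364 genes were, and 5 had an unadjusted p under 0.05, which 11% of all genes also had. edgeR called none of the 36. The 5 were Ucp2 at -0.55 ± 0.17 (adjusted p 0.29), Slc27a1 at -0.61 ± 0.25 (adjusted p 0.417), Plin5 at -0.49 ± 0.20 (adjusted p 0.418), Plin2 at 0.29 ± 0.13 (adjusted p 0.45) and Fabp3 at 0.21 ± 0.10 (adjusted p 0.452). DESeq2 called Ucp2 (adjusted p 0.0049) and Plin5 (adjusted p 0.0368), both with a negative difference, and it called 1.88% of all genes. The median difference over the 36 was 0.01. Without mice 6 and 7 limma called none of the 36 either. A p that misses the threshold does not show that the ventricles changed alike.

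**Figure D4:**
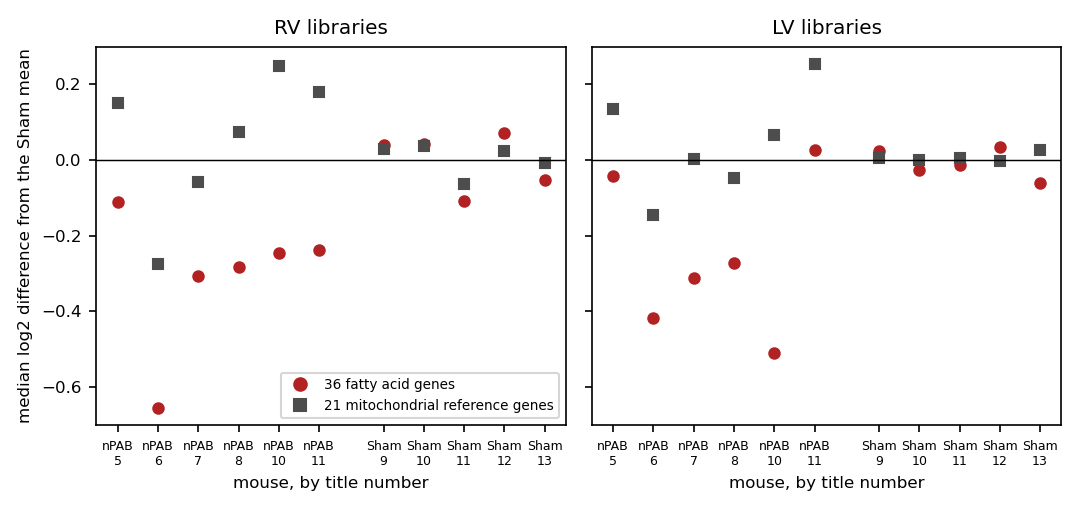
For every library, the median over the 36 members, and over 21 mitochondrial reference genes, of log2 value against the Sham mean of its ventricle. Of the RV nPAB libraries mouse 6 is lowest, and of the LV nPAB libraries mouse 10, while LV mouse 11 is at 0.03.

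Library by library, the median over the 36 members against the Sham mean of the same ventricle was -0.65 to -0.11 in RV nPAB libraries and -0.11 to 0.07 in RV Sham libraries. In the LV it was -0.51 to 0.03 in nPAB and -0.06 to 0.03 in Sham libraries. LV mice 5 and 11 lay near the Sham libraries, at -0.04 and 0.03, and the same libraries carried Acaa2 and Ech1 near Sham levels. The 21 mitochondrial reference genes, 12 of the citric acid cycle and 9 of channels, protein import and upkeep and mitochondrial transcription, ran from -0.28 to 0.25 in RV nPAB and -0.06 to 0.04 in RV Sham libraries, and from -0.14 to 0.25 in LV nPAB and -0.0031 to 0.028 in LV Sham libraries. None of these 21 fell in either ventricle, and 4 rose in the RV, Ogdh, Vdac2, Sdhb and Dlst, and 2 in the LV, Vdac2 and Sdhb. Over all genes, 10.8% fell and 11.1% rose in the RV, and 4.55% fell and 4.76% rose in the LV. At these shares a set of 21 genes would hold few calls. RV nPAB mouse 6, the lowest library for the members, was also the lowest for the reference genes.

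Per gene length, Fabp3 was the most abundant member in all groups, at 6581 ± 329 RPKM (reads per kilobase of exon and M reads; SD, n = 6) in RV nPAB and 6047 ± 393 (n = 5) in RV Sham libraries. Acot13, Cd36 and Acadl came after it in the RV nPAB libraries, with 694 ± 108, 506 ± 65.6 and 495 ± 59.7, and in the RV Sham libraries, where Acaa2 came after Acot13 at 601 ± 36.8, Cd36 and Acadl were at 577 ± 40.1 and 507 ± 7.26. In RV nPAB and RV Sham libraries Cpt1a was at 8.35 ± 1.16 and 13 ± 0.438, and Ucp3 at 3.35 ± 1.27 and 23.1 ± 1.97. Angptl4 was at 13.3 ± 6.26 and 44.1 ± 4.68.

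Between ventricles of the same number, levels could only be described, since the tables were normalized separately; reads scaled to library size were used. In the 5 Sham mice the median log2 ratio of RV to LV over the 36 was -0.06. The RV was higher in all 5 for Cpt1a (0.19 ± 0.062, SD) and Ucp2 (0.25 ± 0.21), where 7.45% of all genes did so, and the LV in all 5 for 12 members, among them Fabp3, Acsl1, Cpt2, Hadhb and Mlycd, against 4.05% of all genes. In the 6 nPAB mice the median was -0.12, with the RV higher in all 6 for Plin2, where 4.05% of all genes did so, and the LV higher in all 6 for Slc27a1, Plin5, Acaa2, Eci2 and Etfb, where 3.23% of all genes did so. The RV and LV libraries of mice 6 and 7 differ in sex, so these 2 ratios may join different animals. In the other 4 nPAB mice, left to stand alone after the data were seen, the median was -0.083. The RV was then higher in all 4 for Fabp3 and Plin2, against 12.4% of all genes, and the LV in all 4 for 8 members, the 5 named with Acadm, Ech1 and Ucp2, against 11.0% of all genes.

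Other genes of the pathway, in lists chosen with earlier results of these data known, were counted the same way. Over all genes, 10.8% fell and 11.1% rose in the RV, and 4.55% fell and 4.76% rose in the LV. These lists are short, and a count near these shares is no result about a list. Of 13 tested partners of uptake, 4 rose in the RV and none fell: Gpihbp1 (0.69 ± 0.093, adjusted p 4.57e-05), which anchors lipoprotein lipase to the capillary, and Fabp4, Acsl5 and Fabp5 (0.40, 0.60 and 0.50). In the LV Acsl4 (0.49) and Gpihbp1 (0.38) rose and Vldlr, a receptor for lipoproteins, fell (-0.41). Of 22 storage and lipolysis genes 5 fell and 1 rose in the RV, and 3 fell in the LV. Lipe, hormone-sensitive lipase, fell in the RV (-1.18 ± 0.15, adjusted p 2.96e-05) and in the LV (-0.74), as did Gpat3, an enzyme of glycerolipid synthesis (-0.98 and -0.74). Fitm2, which acts in droplet formation, and Agpat3 fell in the RV (-0.93 and -0.29), and Agpat2 fell in the LV (-0.56).

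Of 10 further carnitine and malonyl-CoA genes 3 fell in the RV, Slc22a5, the plasma membrane carnitine transporter (-0.64), Acacb, which makes malonyl-CoA at mitochondria (-0.36), and Prkag2 (-0.32), and none was called in the LV. Of 20 further mitochondrial oxidation genes 1 fell in the RV, Acss1, a mitochondrial acetyl-CoA synthetase (-0.69), and none in the LV. Of 6 further thioesterases Acot9 rose and Acot3 fell in both ventricles (0.45 and -2.15 in the RV, 0.48 and -2.01 in the LV), Acot3 at low counts. Of 5 further uncoupling proteins and anion carriers Slc25a5, an ADP/ATP carrier, rose in both (0.52 and 0.33). Of 19 peroxisomal genes 3 fell in the RV, Abcd2 (-0.92), Acox3 (-0.43) and Amacr (-0.47), and 1 rose, where 10.8% of all genes fell and 11.1% rose. None of the 19 was called in the LV. Of 19 regulators 2 rose and 5 fell in the RV, and 1 rose in the LV. These rises lie near the shares of all genes that rose, 11.1% in the RV and 4.76% in the LV. Pparg, a PPAR of fat cells, rose in both (1.11 ± 0.19, adjusted p 3.70e-04; 0.97 ± 0.26, adjusted p 0.0272). In the RV, Sirt1 (-0.57), Rxra, a partner of the PPARs (-0.44), and Ncoa1 (-0.32) fell. Ppara, the form known to drive these genes in heart and named here after its values were seen, was not called in the RV (0.27, adjusted p 0.358) or the LV (0.35, adjusted p 0.168).

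Some cell type markers also moved with nPAB in the RV, where 10.8% of all genes fell and 11.1% rose. Of the 7 heart muscle markers 3 fell, Pln (-0.64), Ryr2 (-0.32) and Tnni3 (-0.26), and Actn2 rose (0.52), while in the LV only Actn2 was called (0.28). All 5 fibroblast markers were negative in the RV and 1, Pdgfra, fell; they summed to 17919 to 29157 normalized counts in RV nPAB and 26767 to 34958 in RV Sham libraries. Of the 2 brown fat markers tested, Dio2 rose in the RV (1.54), and Cidea was not called. With Ucp1, which was at 0 in every RV nPAB library, they summed to 443 to 689 in RV nPAB and 300.4 to 406 in RV Sham libraries. Atrial markers, of which none of 4 was called, summed to 975 to 9937 in RV nPAB and 375 to 2697 in RV Sham libraries. Red cell markers summed to 2373 to 3855 in RV nPAB and 1705 to 3040.0 in RV Sham libraries, and Hbb-bt rose (0.64). Of 4 markers of smooth muscle and pericytes Cspg4 rose in the RV (0.74). None of the 5 endothelial and 5 macrophage markers was called in either ventricle. In the LV no marker of fibroblasts, brown fat, atria, red cells, smooth muscle or pericytes was called. LV sums, nPAB against Sham, were 19187 to 30349 against 22489 to 25819.5 for fibroblasts and 406 to 512 against 238 to 440 for brown fat. They were 510 to 2287 against 715 to 1715 for atrial and 2318 to 3562 against 1066 to 2665 for red cell markers. The part of these markers in the members' falls was not tested.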

How the data were processed

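Per the labels' protocols, RNA came from Qiagen RNeasy Plus Mini columns and the Revelo RNA-Seq High Sensitivity kit was used for the libraries. Per the submitters' processing notes, cutadapt, featureCounts, DESeq2 and mm10 were used; versions, aligner and strand setting were not given in the sources used here. Per the labels, the authors deposited 1 table for each ventricle of a signal, gene counts over DESeq2 size factors, so ventricles were normalized apart. Every value was a whole multiple of what 1 read is worth (100% within 0.001), which gave the depth and the whole reads for edgeR 4.0.16 and DESeq2 1.42.0, used as alternatives.

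The test was limma 3.58.1 in R 4.3.3 (lmFit, eBayes with trend and robust). It ran two-sided on log2(value + 1) of genes whose mean was 10 or more, and p-values were adjusted after Benjamini and Hochberg, with 0.05 as threshold. This scale understates changes of low genes. Alternatives were a pseudocount of 0.5 or 5, no filter or a filter at 50, total-read and TMM scaling, no trend, library weights, edgeR, DESeq2, each mouse left out, mice 6 and 7 left out, and the mouse number as a block. RV and LV libraries were paired by title number, taken as 1 animal, which the sexes contradict for nPAB mice 6 and 7. Deviations from group means correlated at 0.132 to 0.383 in the 9 same-sex pairs, at 0.172 for mouse 6 and at 0.0548 for mouse 7. For both of these mice the RV library correlated most with an LV library of another number. Crossed, RV 6 with LV 7 gave 0.180 and RV 7 with LV 6 gave -0.0433, so the right pairing was not settled. Mice are separate by number, and p-values measure the spread between them. Members and lists were chosen with earlier results of these data known. Every member is named, and up to 4 called genes of each other list, those with the smallest p. A gene that this rule names is not reported here. Sample values are given for the called members with the largest fold change of each step, and for others chosen after their values were seen. Symbols and coordinates come from GENCODE vM21 and promoters from RefSeq GRCm38.p6. The tests were also run on simulated data, with 200 genes changed in the RV and none in the LV. The ventricles were drawn there without a shared mouse, so the pairing of the RV minus LV test was not checked.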

Additional observations from a re-analysis of the deposited data

Results flagged for a closer look

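A library was picked out where its gap to the nearest other library of its group was large relative to the range of the group (Dixon's rule at 95%). Of 144 groups of member values 10 met it, where chance gives about 1 in 20, or 7.2. In the LV nPAB group, mouse 11 was high for Cd36 (26647, the others 13778 to 18173) and Acads (1755, the others 1413 to 1538), and mouse 10 was low for Cpt1a (336, the others 555 to 684). In the LV Sham group, mouse 12 was high for Fabp3 (49414, the others 44977 to 46181), Acsl1 (11658, the others 9319 to 9662) and Cpt2 (2452, the others 2149.8 to 2188). In the RV nPAB group, mouse 6 was low for Acsl1 (5791, the others 7833 to 8591), mouse 5 was high for Decr1 (2815, the others 1789 to 2173) and mouse 7 was high for Acot2 (5101, the others 2432 to 3370.3). In the RV Sham group, mouse 10 was low for Slc25a20 (538, the others 633 to 643). All are normalized counts. LV Sham mouse 12 appears 3 times and LV nPAB mouse 11 appears 2 times.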

How the results depend on the processing

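Fold changes of called members kept their direction in all settings run, in the ventricle in which each was called. Of the RV calls, 6 (Angptl4, Acaa2, Acot1, Acot2, Ucp2 and Ucp3) held in all 23 alternatives, and of the LV calls Ucp3 alone did. In all or all but 1 alternative, 14 RV calls and 4 LV calls held. Lost only in the replicate block described below were Slc27a1, Plin5, Cpt1a, Hadha, Ech1, Eci2, Decr1 and Mlycd in the RV. In the LV these were Plin2, Decr1 and Acot1. Calls moved with the choice of mice left out, the scaling and the variance model. With the number of the mouse as a replicate block, which only 10 and 11 share between nPAB and Sham and which marks different animals (within-ventricle correlation -0.0404 to -0.00363), the RV gave 262 genes and 6 members and the LV 29 genes and 1 member; in that fit Pnpla2 was -0.0036, Acadvl 0.037 and Hadh 0.22 in the RV, and Cd36 0.051, Plin5 0.20, Acadl 0.042, Acads -0.013 and Acot13 0.016 in the LV. Without variance trend and robust option the LV gave 739 genes and 6 members. Without nPAB mice 6 and 7 the LV gave 668 genes and 5 members; in the RV Pnpla2 was then -0.032, Cpt1b 0.022, Hadhb 0.0044 and Hadh 0.084, and LV Fabp3 was -0.012. Scaling by total reads gave 19 members in the LV, Pnpla2 at -0.048 and Acadl at -0.042 in the RV, and Fabp3 at -0.054, Acads at -0.037 and Hadh at -0.013 in the LV; library weights gave LV Fabp3 -0.021. For RV minus LV, 1 gene was called, against 0 with a pseudocount of 0.5, 35 with a filter at 50, 9 with library weights, 137 with edgeR, 251 with DESeq2, 5 with no replicate block, 0 with mice 6 and 7 crossed and 29 without them, and DESeq2 called 2 members. Leaving out 1 mouse gave 16 to 21 members in the RV, 8 to 21 in the LV and 0 in the difference, 2399 to 3015 genes in the RV, 841 to 1290.0 in the LV and 0 to 20 in the difference; Hadh ranged -0.12 to 0.0053 and Pnpla2 -0.0034 to 0.091 in the RV, and Acads -0.033 to 0.058, Fabp3 -0.025 to 0.037 and Hadh -0.049 to 0.095 in the LV. The causes were not tested. Per gene length Cpt1b was the lowest member in every group, at 29.5 to 72.2 normalized counts in RV nPAB libraries. Of its exon length 81.4% is shared with Gm44502 on the same strand, so its low count may not be one of depth.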
